A study of Mus musculus with 6 samples.

Results

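The miR-26 family of the mouse consists of miR-26a, made from the hairpins Mir26a-1 and Mir26a-2, and miR-26b, made from the hairpin Mir26b. These 3 hairpins were taken by name from the 1174 hairpins of the GENCODE M21 annotation. Reads of 18 to 26 nt were counted for them when they matched a hairpin without mismatch on the sense strand, and a read whose midpoint lay before that of the hairpin was given to the 5p arm and any other to the 3p arm. The copies of miR-26a give the same 5p miRNA but different 3p miRNAs, so the family has 5 arms. All 5 arms had reads, and all 5 were among the 690 arms abundant enough to be tested.

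The libraries hold small RNA of the sensorimotor cortex of male C57BL/6J mice of postnatal day 90, with no transgene or mutation named in the labels. In the control group the cervical spinal cord was exposed and left intact. In the SCI (spinal cord injury) group the cord was cut through completely at the C5-C6 level, and both groups were sampled 7 days after surgery with 3 libraries each. The tissue lies far from the lesion and holds the cell bodies of corticospinal neurons, whose axons run in the transected tracts, among many other cells. The labels describe the samples as collected one by one, but do not say that each library is 1 animal. The p-values therefore set group differences against the spread between libraries, which need not be the spread between animals.

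A miRNA guides an Argonaute protein to messenger RNAs, and its seed, bases 2 to 8, pairs with the target. The first base of the miRNA is set when Drosha (for the 5p arm) or Dicer (for the 3p arm) cuts the precursor, so a read that starts at another base carries another seed. The strand that Argonaute keeps is usually 1 of the 2 arms, and its 3′ end may later be trimmed or extended by A or U. miR-26 is abundant in brain, and it is known to repress Ezh2, the methyltransferase of Polycomb complex 2. Terminal uridyl transferases are known to add U to miR-26. Its hairpins lie in genes of the Ctdsp family, small phosphatases of the RNA polymerase II tail that help to silence neuronal genes outside neurons, and miR-26b is known to repress its own host family.

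The mature sequences are shown because the counts of starts, ends and added bases are read against them. They are from RefSeq (GRCm38.p6), 5′ to 3′, with the seed in capitals.
miR-26a-5p: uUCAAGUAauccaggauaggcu
miR-26b-5p: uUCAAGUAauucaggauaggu
miR-26a-1-3p: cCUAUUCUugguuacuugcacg
miR-26a-2-3p: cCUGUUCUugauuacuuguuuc
miR-26b-3p: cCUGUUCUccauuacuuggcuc
Over the 21 positions they share, counted from 1 at the 5′ end, miR-26a-5p and miR-26b-5p differ by C11U and C21U, so they share the seed. No other of the 1674 distinct mature sequences in the table carries the seed UCAAGUA. Among the 3p arms, miR-26a-1-3p and miR-26a-2-3p differ at 6 positions, and A4G lies in the seed. miR-26a-2-3p and miR-26b-3p differ at 4 positions, none in the seed. Their shared seed is also held by miR-6932-3p and miR-7039-3p.

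Mir26a-1 lies on chromosome 9 (119031796 to 119031885, plus strand, GRCm38) in an intron of Ctdspl. Mir26a-2 lies on chromosome 10 (126995530 to 126995613, plus strand) within Ctdsp2, where an exon covers it in 2 of 4 annotated transcripts. Mir26b lies on chromosome 1 (74394310 to 74394394, plus strand) in an intron of Ctdsp1. All 3 hairpins are on the strand of their host gene.

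The libraries held 10585062 to 24480988 reads in control and 14628518 to 23408028 in SCI, and 72.9% to 78.9% of the reads entered the arm counts. Levels are CPM, the count of an arm relative to the library's total of arm reads, scaled by the trimmed mean of M values (TMM). Of the marker miRNAs of 8 cell types, the summed level of the neuronal ones (miR-124-3p, miR-9-5p and miR-128-3p) was 170541 to 187376 CPM in control and 148703 to 158391 in SCI, without overlap. This sum was carried by miR-9-5p and miR-128-3p, while miR-124-3p had a higher mean in SCI (16222 ± 1319 CPM) than in control (12804 ± 3289), with overlap. The 4 markers of mural and stromal cells summed to 4646 to 5314 CPM in control and 3463 to 3805 in SCI, without overlap. Of these, miR-143-3p and miR-145a-5p were lower in every SCI library, whereas miR-199a-3p (84.4 and 84.6 CPM) and miR-214-3p (1.202 and 1.23 CPM) overlapped. Markers of leukocytes and microglia summed to 1257 to 1486 and 1053 to 1210 CPM, and of these 3 only miR-150-5p did not overlap. For the other 5 types the summed levels of the groups overlapped. Of their single markers, miR-200a-3p of the choroid plexus was lower in every SCI library (38.7 ± 19.3 CPM in control, 20.95 ± 2.74 in SCI). miR-206-3p of skeletal muscle was higher in every SCI library (2.42 ± 0.345 CPM in control, 4.59 ± 1.64 in SCI). The remaining markers of these types overlapped. Among all 690 arms, the groups did not overlap in 20.3%, and in 11.2% the SCI libraries were the lower ones. None of the markers was at 0, and their part in the differences below was not tested.

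The level of the family's guide strands did not pass the test. miR-26a-5p, the main arm of both miR-26a copies, stood at 77427, 83895 and 77519 CPM in control 1, 2 and 3, and at 80385, 77572 and 73464 CPM in SCI 1, 2 and 3. The groups overlapped. With group means of 79614 ± 3708 and 77140 ± 3480 CPM (SD, n = 3), it had the third highest level of the 690 arms in these libraries, and its log2 fold change, SCI over control, was −0.05 ± 0.10 (SE; edgeR quasi-likelihood test, Benjamini-Hochberg adjusted p = 0.847). miR-26b-5p, with the same seed and a much lower level, stood at 5917, 5368 and 5366 CPM in control and at 4847, 5007 and 4849.8 in SCI. All 3 SCI libraries lay below all control libraries, which held for 11.2% of all arms. The difference was −0.18 ± 0.10 on the log2 scale and did not pass (edgeR, adjusted p = 0.474). Together both 5p arms made up 7.73% to 8.66% of the arm reads of a library. In bulk tissue, fewer cells of a type and less RNA per cell cannot be told apart.

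The passenger strands were present at about 10 CPM. miR-26a-1-3p stood at 6.80, 8.34 and 6.86 CPM in control and at 15.6, 6.11 and 8.33 in SCI. SCI 1 alone was high, and the log2 difference of 0.44 ± 0.32 (edgeR, adjusted p = 0.554) was −0.01 without that library. miR-26a-2-3p stood at 12.2, 12.4 and 9.17 CPM in control and at 10.2, 7.93 and 8.07 in SCI, with overlap, and its log2 difference was −0.36 ± 0.21 (edgeR, adjusted p = 0.466). miR-26b-3p stood at 8.54, 14.2 and 11.5 CPM in control and at 7.23, 9.06 and 8.01 in SCI, also with overlap. Its log2 difference was −0.48 ± 0.23 (edgeR, adjusted p = 0.380).

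None of the 690 arms passed at an adjusted p under 0.05 (0%), while 97 (14.1%) had an unadjusted p under 0.05 in edgeR. DESeq2 passed 12 arms and limma-voom 0, and no miR-26 arm was among those 12. With scaling by total count in place of TMM, the median log2 difference of all arms moved from −0.02 to 0.09. miR-26a-5p then stood at 0.07 and miR-26b-5p at −0.06: the sign of miR-26a-5p turned with the scaling, and that of miR-26b-5p did not.

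**Figure D1:**
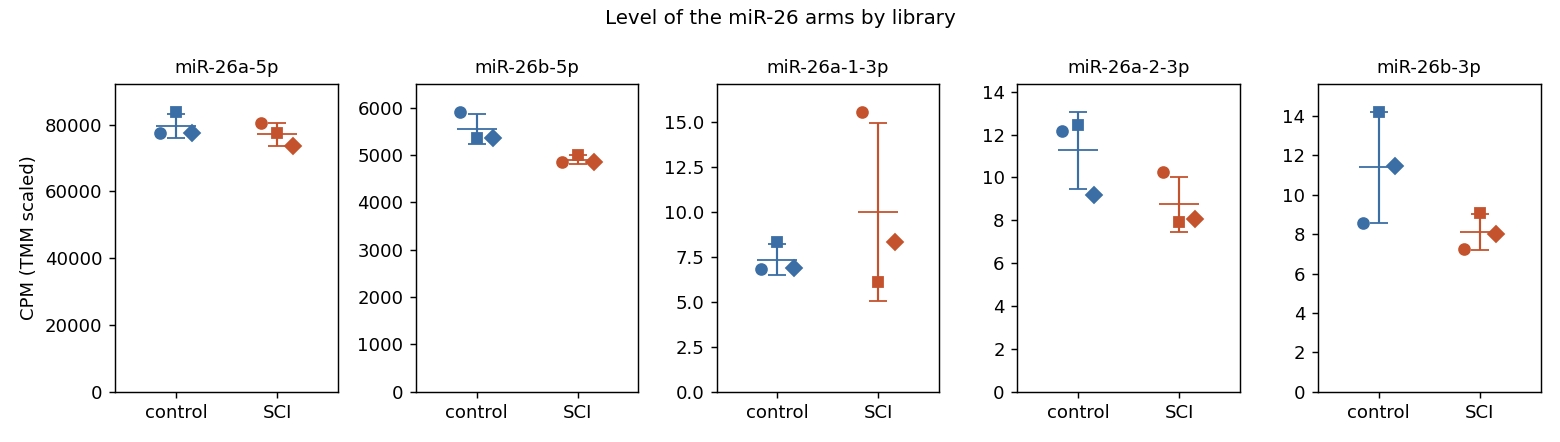
Level of each miR-26 arm in CPM (TMM scaled, linear axes from 0), one panel per arm. Points are the 3 control (blue) and 3 SCI (red) libraries, with circles, squares and diamonds for libraries 1, 2 and 3, and bars are mean ± SD. Only in miR-26b-5p do the groups not overlap, and SCI 1 stands at 15.6 CPM in miR-26a-1-3p.

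The 5′ starts of the guide strands differed between the groups: reads that start at another base than the main start were rarer in SCI in both miR-26a-5p and miR-26b-5p. For each arm that averaged 100 counts or more per library, reads starting at any base other than the arm's most abundant start were set against reads starting there, and the log2 ratio (pseudocount 0.5) was tested with limma over 441 arms. For miR-26a-5p, reads with another start made up 5.58%, 4.56% and 3.74% in the control libraries 1, 2 and 3. In the SCI libraries they made up 1.70%, 1.34% and 1.17%. For miR-26b-5p they made up 7.21%, 5.79% and 4.75% in control and 1.83%, 1.29% and 1.03% in SCI. In both arms every SCI library lay below every control library, and control 1 was the highest. Control 1 also stood apart over all arms, at −9.02 on the first principal component of the arm levels against −2.87 to 5.84 for the other libraries. With 7.55% it had the largest share of other starts over all arms, against 6.28% to 6.82%. Without it the log2 differences given next were −1.62 and −2.02.

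The ratio of other starts to the main start fell in miR-26a-5p by 1.77 ± 0.21 on the log2 scale and in miR-26b-5p by 2.18 ± 0.27 (limma, Benjamini-Hochberg adjusted p = 0.0277 for both). Group means of the share of other starts were 4.63% ± 0.919 and 1.40% ± 0.272 (SD, n = 3) for miR-26a-5p, and 5.92% ± 1.24 and 1.38% ± 0.408 for miR-26b-5p. Among all arms, 33 of 441 passed with a fall (7.48%) and 1 with a rise (0.227%, miR-346-5p). All SCI libraries lay below all controls in 30.2% of arms.

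The call was near the threshold, although the direction held. With any 1 library left out, the log2 difference of miR-26a-5p lay between −1.92 and −1.62 and that of miR-26b-5p between −2.41 and −1.99. Both arms kept their call without control 3 (adjusted p = 0.0243). They lost it without control 1 (0.0702), control 2 (0.103), SCI 1 (0.0624), SCI 2 (0.106) or SCI 3 (0.0722), each an adjusted p from limma. Without each of those 5 libraries, 0 or 1 of the 441 arms passed.

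A passenger strand of the family also passed, on few reads. In miR-26a-1-3p, 7 of 113, 9 of 67 and 7 of 131 reads had another start in control, and 2 of 181, 1 of 108 and 0 of 130 in SCI. The log2 difference, which depends on the pseudocount, was −3.28 ± 0.65 (limma, adjusted p = 0.0421). Its adjusted p in limma was 0.0666 to 0.116 with any 1 library left out. In miR-26a-2-3p, 4 of 202, 3 of 100 and 7 of 175 reads had another start in control, and 1 of 119, 0 of 140 and 4 of 126 in SCI (−1.48 ± 0.86, limma adjusted p = 0.354). In miR-26b-3p the difference was −0.34 ± 0.43 (adjusted p = 0.676). By the size of the fall, miR-26a-1-3p, miR-26b-5p and miR-26a-5p held the first 3 places among the 441 arms, miR-26a-2-3p place 8 and miR-26b-3p place 132. Most other arms also leaned downward, with a median log2 difference of −0.13 and 307 of 436 below 0. Of these 436 arms, 30 passed with a fall.

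**Figure D2:**
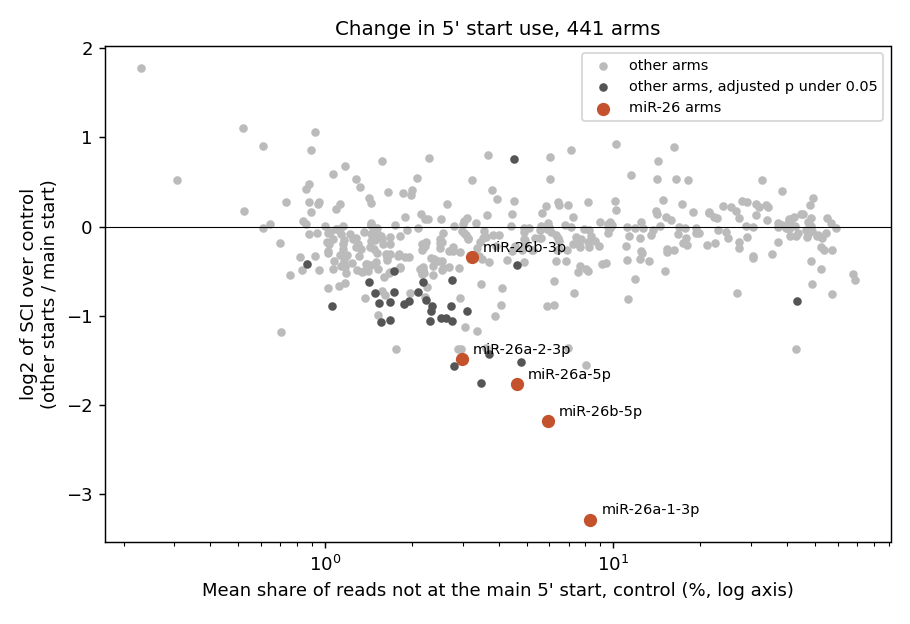
Change in 5′ start use for the 441 arms. The x axis is the mean share of reads not at the main start in control (percent, log axis) and the y axis the log2 difference, SCI over control, of other starts over the main start. Red points are the 5 miR-26 arms and dark grey points other arms that passed. miR-26a-1-3p, miR-26b-5p and miR-26a-5p are the 3 lowest points, at −3.28, −2.18 and −1.77. The point of miR-26a-1-3p rests on few reads and depends on the pseudocount.

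Nearly all the change lay in 1 kind of read, which starts 1 base downstream of the main start. The most abundant such reads are shown because the rest of the result rests on them, with bases 2 to 8 of the read, its own seed, in capitals.
miR-26a-5p, 1 base downstream: uCAAGUAAuccaggauaggcu
miR-26b-5p, 1 base downstream: uCAAGUAAuucaggauagguu
Both reads are 21 nt long and lack the first U of the mature sequence. Their seed CAAGUAA is carried by 0 of the 1674 mature sequences in the RefSeq table. The first base of a read depends on how the degenerate bases of the adapters were trimmed, which is not given in the sources used here, and the part of that step in these shares was not tested. Over all libraries the miR-26a read was counted 90970 times and the miR-26b read 10879 times.

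Reads of miR-26a-5p that start 1 base downstream made up 4.997%, 4.03% and 3.29% of the arm in control, and 1.32%, 0.946% and 0.792% in SCI. In miR-26b-5p they made up 6.75%, 5.41% and 4.49% in control, and 1.59%, 1.08% and 0.856% in SCI. Again the groups lay apart in both arms. For all other starts together, every SCI library lay below every control library in 30.2% of the 441 arms. Tested alone over the 441 arms, starts 1 base downstream fell by 2.07 ± 0.26 on the log2 scale in miR-26a-5p and by 2.34 ± 0.29 in miR-26b-5p (limma, adjusted p = 0.0135 for both). In this test 48 of the 441 arms passed with a fall (10.9%) and 0 with a rise (0%). By the size of the fall miR-26b-5p held place 3 and miR-26a-5p place 8, behind miR-26a-1-3p in place 1. Starts 2, 3 and 4 bases downstream were rarer, with 0.138% ± 0.0298 in control and 0.0518% ± 0.00484 in SCI for a shift of 2 bases in miR-26a-5p, without overlap.

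Shares of reads that start upstream of the main base overlapped between the groups. They made up 0.289%, 0.309% and 0.286% of miR-26a-5p in control and 0.285%, 0.292% and 0.291% in SCI (log2 difference −0.07 ± 0.13, limma adjusted p = 0.951). In miR-26b-5p they made up 0.0877% ± 0.00519 in control and 0.0911% ± 0.00885 in SCI (−0.02 ± 0.15, adjusted p = 0.991). No arm of the 441 passed for upstream starts. The separate analyses of downstream and of upstream starts were chosen after the values had been seen.

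**Figure D3:**
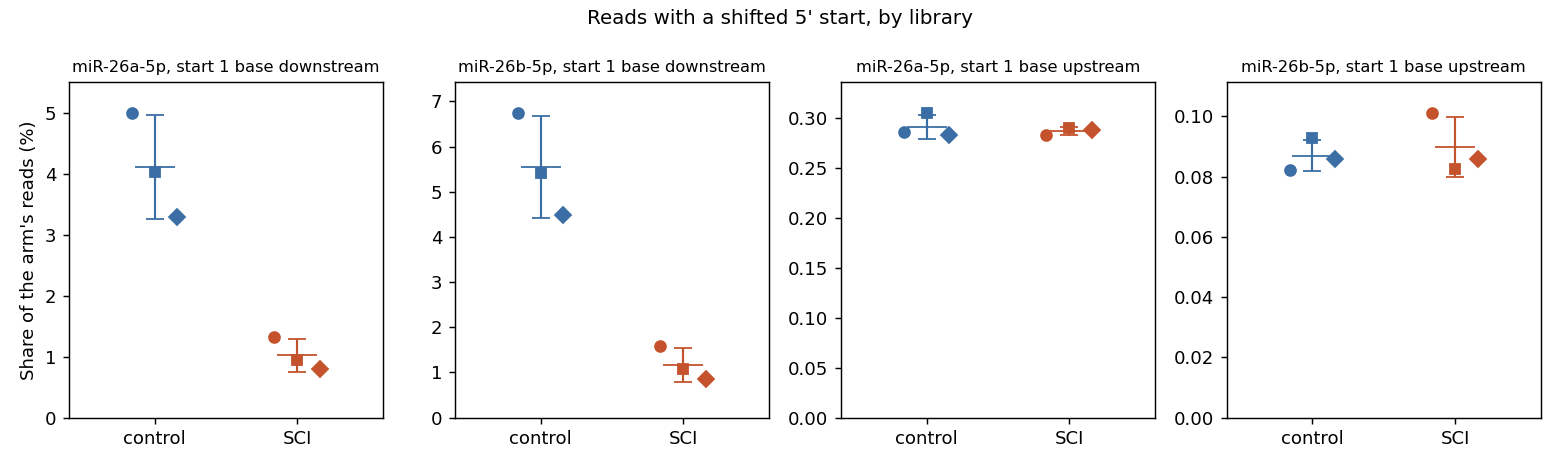
Share of reads that start 1 base downstream (left pair of panels) or 1 base upstream (right pair) of the main start, in percent of the reads of miR-26a-5p and miR-26b-5p. Points are libraries 1, 2 and 3 (circle, square, diamond), bars are mean ± SD, and each axis starts at 0 with its own scale. The downstream shares of the SCI libraries, 0.792% to 1.59%, lie below those of all control libraries, 3.29% to 6.75%, while the upstream shares overlap.

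In CPM, the shifted reads were lower in every SCI library, while the main reads of miR-26a-5p overlapped between the groups. Reads of miR-26a-5p at the main start averaged 75932 ± 3663 CPM in control and 76053 ± 3233 in SCI. Those 1 base downstream stood at 3869, 3377 and 2554 CPM in control and at 1063, 734 and 582 in SCI. For miR-26b-5p the main start gave 5219.8 ± 236 CPM in control and 4834 ± 96.5 in SCI, with all SCI libraries lower, and the start 1 base downstream 399, 291 and 241 CPM against 77.0, 54.0 and 41.5. The lower level of miR-26b-5p in SCI, given above, comprised shifted reads as well as main reads. The group means of the shifted reads were 310.2 and 57.5 CPM. Over both 5p arms, the seed CAAGUAA was carried by 5.12%, 4.11% and 3.37% of reads in control and by 1.34%, 0.954% and 0.796% in SCI, and the seed UCAAGUA by 95.3% ± 0.945 and 98.6% ± 0.280.

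The difference appeared at every 3′ end that held many reads. Among miR-26a-5p reads with the most abundant 3′ end, 4.03% ± 0.841 in control and 1.05% ± 0.291 in SCI started 1 base downstream. Among reads 1 base shorter at the 3′ end the shares were 4.59% ± 1.06 and 1.03% ± 0.289, and among reads 2 bases shorter 3.89% ± 0.679 and 0.984% ± 0.241. It also appeared in reads with added bases. In A-tailed reads of miR-26a-5p the shifted start took 5.86%, 4.65% and 3.89% in control and 1.44%, 1.03% and 0.747% in SCI. In its U-tailed reads it took 3.53%, 3.11% and 2.47% against 1.15%, 0.815% and 0.682%. miR-26b-5p showed the same order of groups in A-tailed reads (3.46% to 5.57% in control, 0.963% to 1.13% in SCI) and in U-tailed reads (5.25% to 7.27% and 0.604% to 1.53%).

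The libraries as a whole moved less. Over all arms without miR-26, reads with another start took 7.71%, 6.85% and 7.09% in control and 7.01%, 6.90% and 6.75% in SCI, and the groups overlapped. The share of other starts in the median arm was 3.599% to 3.87% in control and 3.13% to 3.18% in SCI, without overlap. With miR-26 included, other starts over all arms took 6.66% to 7.55% in control and 6.28% to 6.55% in SCI. Those 1 base downstream took 4.16% to 4.81% in control and 3.73% to 4.03% in SCI. Neither of these shares overlapped between the groups. Arms other than miR-26 whose main read starts with U, as the miR-26 5p arms do, had a median log2 difference of −0.18 (174 arms, 21 passed with a fall). Those starting with UU had −0.24 (30 arms, 3 passed with a fall). The median was −0.14 for A (120 arms, 5 passed with a fall), −0.12 for C (102 arms, 2 passed) and −0.07 for G (40 arms, 2 passed).

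The same reads were also tested one sequence at a time, in edgeR over 4849 sequences. Of these, 129 passed with a fall (2.66%) and 18 with a rise (0.371%). Of the 31 tested sequences of miR-26a-5p 8 passed, and of the 18 of miR-26b-5p 6 passed. All 14 fell, and each starts 1 or 2 bases downstream of the main start. Of the sequences that start 1 base downstream, 5 of 6 passed in miR-26a-5p, with log2 differences from −2.23 to −1.47 over the 6, and 5 of 5 in miR-26b-5p, from −2.47 to −1.70. None of the 14 sequences at the main start passed (7 in each arm), and none of the 14 upstream ones (12 in miR-26a-5p, 2 in miR-26b-5p).

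The shifted 21-nt read of miR-26a-5p shown above stood at 2185, 1683 and 1248 CPM in control and at 491, 389 and 299 in SCI. Its log2 difference was −2.12 ± 0.24 (edgeR, adjusted p = 0.0022). That of miR-26b-5p stood at 287, 195 and 151 CPM in control and at 49.0, 37.0 and 28.2 in SCI, with −2.47 ± 0.28 (edgeR, adjusted p = 0.0022). Both lay below control in all 3 SCI libraries, and the share of all tested sequences that did so is not given here. Without SCI 3 they stood at −1.95 and −2.29 with adjusted p = 0.0568 for both, and no sequence of any arm passed. With any other library left out both passed, and the number of passing sequences was 54 with control 2 left out, 67 with SCI 1 left out and 55 with SCI 2 left out.

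The 4 most abundant reads at the main start made up most of miR-26a-5p. The 22-nt read, identical to the mature sequence, held 49.3% of the arm's 6891620 reads, and the reads 1, 2 and 3 bases shorter at the 3′ end held 25.4%, 18.4% and 2.77%. miR-26b-5p, with 464375 reads, was mostly 1 base longer than the RefSeq form. That last U is also the next base of the Mir26b hairpin, so the read counts as untailed. The sequence of the arm's main read is shown for that base, with the seed in capitals.
miR-26b-5p, most abundant read: uUCAAGUAauucaggauagguu
This 22-nt read held 64.2% of the arm, the 21-nt read that equals the RefSeq mature sequence 24.5% and the 20-nt read 5.33%. In each 3p arm the most abundant read over the 6 libraries was the RefSeq mature sequence. It took 61.2% to 90.1% of miR-26a-1-3p, 68.9% to 77.0% of miR-26a-2-3p and 33.3% to 43.9% of miR-26b-3p by library.

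The 3′ ends leaned toward shorter reads in SCI without passing. Reads of miR-26a-5p that end before the most abundant end took 44.2%, 46.4% and 48.3% in control and 55.2%, 49.0% and 51.5% in SCI. All SCI libraries lay above all controls, as in 12.9% of arms, and SCI 1 was the highest. The log2 difference was 0.32 ± 0.16 (limma, adjusted p = 0.569). In miR-26b-5p the shares were 27.3%, 31.9% and 33.9% in control and 37.1%, 33.5% and 34.2% in SCI, with overlap (0.26 ± 0.17, limma adjusted p = 0.620). The 3p arms overlapped and had no common direction. miR-26a-1-3p leaned toward longer reads, with shares of 21.4% in control and 16.3% in SCI (−0.57 ± 0.39, limma adjusted p = 0.620). miR-26a-2-3p stood at 0.06 ± 0.20 and miR-26b-3p at 0.18 ± 0.20. The median log2 difference over the 441 arms was 0.14. No arm passed in limma, while 38 (8.62%) had an unadjusted p under 0.05.

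**Figure D4:**
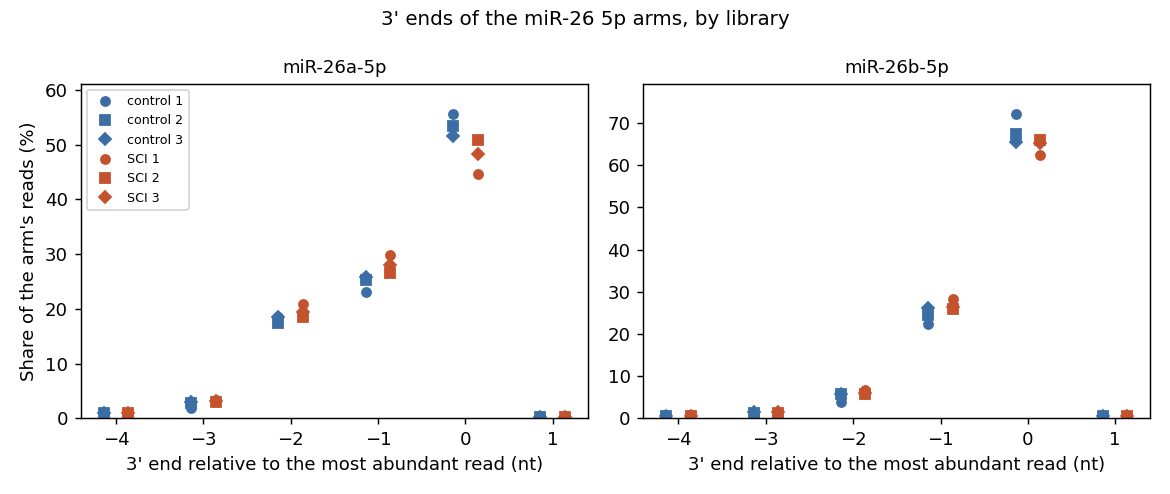
Share of the reads of miR-26a-5p and miR-26b-5p (percent) at each 3′ end, in nt relative to the end of the most abundant read, with negative values for shorter reads. Blue points are control and red points SCI libraries, with a symbol per library. At end 0 of miR-26a-5p the controls lie at 51.5% to 55.6% and the SCI libraries at 44.7% to 50.8%.

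Added U, the modification for which miR-26 is known, overlapped between the groups on both 5p arms. A base that equals the next base of the hairpin cannot be told from it and counts as untailed. U tails of 1 to 3 bases were on 4.70%, 3.82% and 3.71% of miR-26a-5p reads in control and on 3.90%, 3.77% and 3.92% in SCI, with overlap (−0.06 ± 0.15, limma adjusted p = 0.939). On miR-26b-5p they took 5.63%, 4.59% and 4.31% in control and 4.97%, 4.52% and 4.72% in SCI (adjusted p = 0.999). On miR-26b-3p they took 13.6%, 9.22% and 9.33% in control and 8.11%, 13.2% and 14.6% in SCI. On miR-26a-2-3p, U tails were on 1, 1 and 3 reads in control and on 0 in every SCI library, with a log2 difference, which depends on the pseudocount, of −1.74 ± 0.37 (limma, unadjusted p = 0.00307, adjusted p = 0.452). All SCI libraries were below all controls in 5.9% of arms, and 2 of the 441 arms had a smaller p. The median over all arms was 4.06%. No arm passed in limma, and 27 of 441 (6.12%) had an unadjusted p under 0.05.

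Added A was more frequent on miR-26a-5p in SCI, below the test's threshold. A tails were on 4.81%, 4.58% and 4.67% of its reads in control and on 5.94%, 5.44% and 5.53% in SCI, and all SCI libraries lay above all controls, as in 18.8% of arms. The log2 difference was 0.28 ± 0.11 (limma, unadjusted p = 0.0487, adjusted p = 0.420). On miR-26b-5p A tails took 6.91%, 6.81% and 6.96% in control and 9.47%, 6.93% and 7.58% in SCI, with overlap and with SCI 1 the highest (0.22 ± 0.16, limma adjusted p = 0.566). On miR-26a-2-3p, A tails were on 1, 1 and 2 reads in control and on 4, 5 and 4 in SCI (1.69 ± 0.29, adjusted p = 0.326). The remaining 3p arms did not share this rise. On miR-26a-1-3p A tails averaged 4.14% in control and 1.77% in SCI, with overlap (limma, adjusted p = 0.723). On miR-26b-3p the groups also overlapped (0.021 ± 0.406, limma adjusted p = 0.977). Over all arms, A tails took 4.52% to 4.77% of the reads in control and 4.97% to 5.47% in SCI, also without overlap, and the median log2 difference was 0.14. None of the 441 arms passed in limma, and 46 (10.4%) had an unadjusted p under 0.05.

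**Figure D5:**
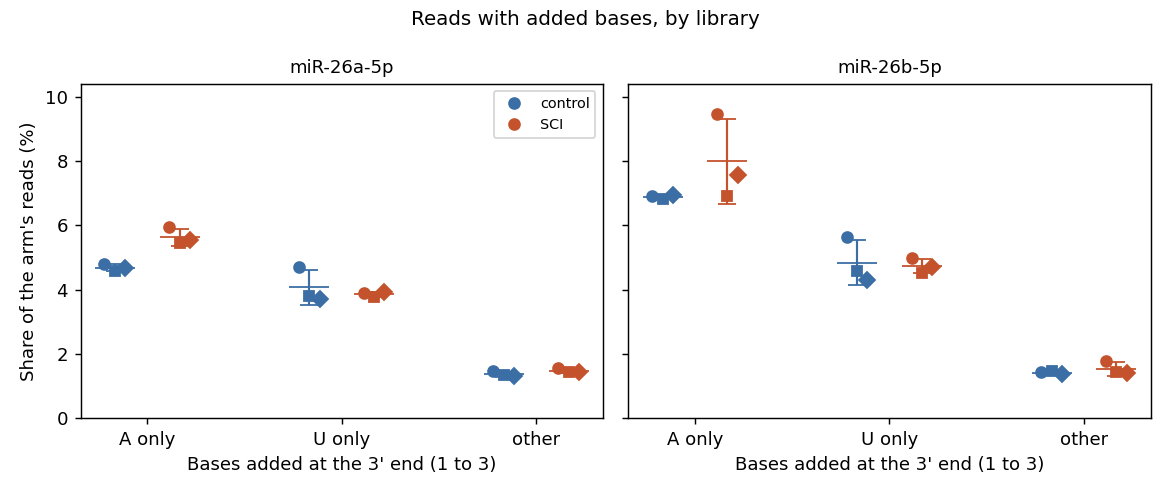
Share of reads of miR-26a-5p and miR-26b-5p (percent) extended at the 3′ end by 1 to 3 bases that the hairpin does not hold, for A only, U only and other bases. Points are libraries 1, 2 and 3 (circle, square, diamond) in control (blue) and SCI (red), and bars are mean ± SD. A tails of miR-26a-5p lie at 4.58% to 4.81% in control and 5.44% to 5.94% in SCI, while U tails overlap.

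Arm use was far on the 5p side in both groups. The 3p arms of miR-26a together held 0.0245%, 0.0248% and 0.0207% of the hairpins' reads in control and 0.0321%, 0.0181% and 0.0223% in SCI. This was the lowest 3p share of the 246 hairpins, or joint hairpins, that averaged 10 counts or more in both arms, whose median was 42.8%. The 3p arm of miR-26b held 0.144%, 0.264% and 0.213% in control and 0.149%, 0.181% and 0.165% in SCI, at place 238 of 246 from the highest. The groups overlapped in both, with log2 differences of 0.02 ± 0.24 (limma, adjusted p = 0.974) and −0.29 ± 0.25 (adjusted p = 0.662). None of the 246 passed in limma, and 27 (11%) had an unadjusted p under 0.05.

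The 2 copies of miR-26a can be told apart by their 3p arms and by 5p reads that start upstream of the mature sequence. The hairpins around the 5p arm are shown, with the mature sequence in capitals, because the flanking bases are what separates the copies.
Mir26a-1: ucgUUCAAGUAAUCCAGGAUAGGCUgugca
Mir26a-2: ggaUUCAAGUAAUCCAGGAUAGGCUguguc
Of the 5p reads found in only 1 of the hairpins, those of Mir26a-1 took 41.2%, 44.2% and 44.3% in control and 44.6%, 42.5% and 41.4% in SCI. The groups overlapped, with a difference of −0.409 percentage points (two-sided exact permutation test, p = 1, where 3 libraries against 3 allow no p below 0.1). These shares rest on 1531, 920 and 1875 reads of Mir26a-1 in control and 1188, 1697 and 1381 in SCI. Reads with such upstream starts averaged 0.294% of miR-26a-5p in control and 0.289% in SCI. The copy of origin of the other 5p reads cannot be told, so the shares need not hold for the whole arm.

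By the 3p arms, Mir26a-1 took 35.9%, 40.1% and 42.8% of the miR-26a 3p reads in control and 60.3%, 43.5% and 50.8% in SCI. All SCI libraries lay above all controls, with a difference of 11.95 percentage points (exact permutation test, p = 0.1), and of 7.56 points without SCI 1. Each share rests on few reads: the 95% Wilson interval of SCI 2 ran from 37.5% to 49.8% and that of control 3 from 37.4% to 48.4%, which overlap widely. The differences in the 5p and the 3p reads of the copies had opposite signs. miR-26b took 7.10%, 6.01% and 6.47% of the family's 5p reads in control and 5.69%, 6.06% and 6.19% in SCI, with overlap (exact permutation test, p = 0.3).

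The arms whose levels varied most like those of miR-26a-5p over the 6 libraries, among 235 candidates with a mean of at least 100 CPM, were miR-411-5p, miR-664-3p and miR-27b-3p. Their root mean square differences of centred log2 CPM were 0.0336, 0.0445 and 0.0503, and miR-26a-5p itself varied by 0.0584 around its mean. For miR-26b-5p, which varied by 0.102, they were miR-128-3p (0.0422), miR-532-5p (0.05003) and miR-330-5p (0.0639). miR-128-3p averaged 84696 ± 6655 CPM in control and 74836 ± 3221 in SCI, without overlap. It was picked for its likeness to miR-26b-5p in these same libraries, where miR-26b-5p does not overlap either, so its separation is no separate result.

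Of 34 tested arms of other miRNAs that lie in introns of protein-coding genes, as Mir26a-1 and Mir26b do, 13 lay above 0 and 21 below, and 0 passed. The median log2 difference was −0.15, beside −0.02 over all arms, and the groups did not overlap in 14 of the 34, against 20.3% of all arms. Those of smallest unadjusted p were miR-342-3p with 0.79 ± 0.24, miR-106b-5p with 0.47 ± 0.15 (edgeR, adjusted p = 0.256 for both) and miR-326-3p with 0.46 ± 0.16 (adjusted p = 0.260).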

How the data were processed

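For each of 6 libraries the authors deposited the raw count of every distinct read sequence, per the file headers. Per the labels' protocols, RNA was extracted with the mirVana kit, and libraries made with HD adapters, which carry degenerate bases at their ends, were sequenced as single-end reads of 50 nt. Ligation affects which ends of a small RNA are counted. The adapter trimmer, aligner and read filters are not given in the sources used here, while the submitters' processing notes name the build GRCm38.

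Reads of 18 to 26 nt were matched here, on the sense strand without mismatch, to the 1174 miRNA hairpins of GENCODE M21. Reads in several arms (0.128% to 0.195% of a library's matched reads) were left out, and reads with 1 to 3 added bases that do not match were used for tails only. Arms were named by RefSeq mature sequences (1661 of 2348 arms matched). The reads carry no molecular identifiers, so Wilson intervals cover counting error only.

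Counts were tested with edgeR 4.0.16 (quasi-likelihood, TMM, filterByExpr with a minimum count of 10). Log2 ratios with a pseudocount of 0.5 were tested with limma 3.58.1 over arms that averaged 100 counts or more (10 in each arm for arm balance). Both used all 6 libraries without covariates in R 4.3.3, with Benjamini-Hochberg adjustment over all features and a threshold of 0.05. The SE of an edgeR fold change was derived from its F statistic. Shares within the family were tested by exact two-sided permutation. The scripts were tested on simulated data. DESeq2 1.42.0 and limma-voom were alternatives, and tables were handled with Python 3.11.15 and pandas 2.3.3.

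The text names the 5 arms, the 5 most abundant reads of each 5p arm and the 2 of each 3p arm, the 3 arms of most similar pattern and the 3 of smallest p among the listed intronic miRNAs. A further list of miRNAs is not reported here. The members, lists and markers were chosen with earlier results of these data known.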

Additional observations from a re-analysis of the deposited data

How the results depend on the processing

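Most values for the family that had not passed a test did not pass under the alternatives either, whereas the calls on 5′ starts were often lost. The 3 arms called there lost the call in 19 and kept it in 13 of 32 alternatives, and 2 further calls, on single reads, were lost. The 32 include starts 1 base downstream alone, where all 3 arms kept the call, and starts upstream alone, where all 3 lost it. Both settings were chosen after the values had been seen. Each value of a single arm or read was compared with its main value under several alternatives. Of these comparisons, 374 kept direction and side of the threshold, 17 changed sign and 2 gained a call. The counts of arms or sequences that passed depended more on the libraries. Leaving out 1 library gave 0 to 7 arms by level, 0 to 142 read sequences and 0 to 36 arms by 5′ start, and 0 to 1 arms each by U tails and A tails. The 1 arm, without control 1, was miR-26a-2-3p in both (limma, adjusted p = 0.0482 and 0.0498). By level, DESeq2 passed 12 arms, and edgeR without a filter on low counts 30. By 5′ start, a minimum mean count of 500 gave 61 arms, and starts upstream alone, added after the data had been seen, 0. The causes of these changes were not tested.

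No difference that changed sign had passed its test. With 1 library left out, log2 differences ranged from −0.0063 to 0.70 for the level of miR-26a-1-3p, from −0.21 to 0.20 for the arm balance of miR-26a and from −0.63 to 0.12 for the 5′ start of miR-26b-3p. For 3′ ends they ranged from −0.12 to 0.18 in miR-26a-2-3p and from −0.013 to 0.28 in miR-26b-3p. For U tails they ranged from −0.12 to 0.057 in miR-26a-5p, from −0.089 to 0.12 in miR-26b-5p and from −0.035 to 0.76 in miR-26a-1-3p, and for A tails from −1.74 to 0.020 in miR-26a-1-3p and from −0.27 to 0.49 in miR-26b-3p. The share of Mir26a-1 among copy-specific 5p reads differed by −1.43 to 0.313 points. The level of miR-26a-5p was 0.068 with total count scaling.

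The replicate numbers were not taken as pairs, since libraries of the same number correlated in their deviations from the group means at 0.223, −0.0570 and −0.0863, and only the first pair matched best with its own number. With the replicate number as a block, 240 read sequences passed in place of 147, 29 arms in place of 34 by 5′ start, and no call on a miR-26 arm changed.

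Depth limits the 3p arms, with 67 to 219 reads per library, where 1 read is a share of 0.457% or more.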
